A study of Mus musculus with 9 samples.

Results

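Acute-phase and siderophore-binding proteins were followed across sorted and cultured GFAP-expressing enteric glia (GFAP-glia), by every probe whose platform symbol was Lcn2, Saa3, Cp, Hp, Ptx3, Chil1, Orm1, Serpina3n, Camp or Slpi. These 10 genes were covered by 13 of the 25697 probes on the array, with 3 probes for Hp, 2 for Ptx3 and 1 for each of the others. All 13 were detected on at least 1 array and entered the fit, which held 14795 probes of 10796 genes.

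The study asked how GFAP-glia of the gut respond to an acute inflammatory stimulus, and measured RNA on 9 Illumina bead arrays in 3 groups of 3. All cells came from FVB mice carrying hGFAP-eGFP, in which a human GFAP promoter drives green fluorescent protein, and were sorted by this fluorescence from digested muscle and myenteric plexus of the small intestine on postnatal day 7. The group named GFAP-glia in vivo was lysed straight after sorting. The gliospheres were grown at 2% oxygen with EGF and bFGF. Cells were kept attached for about 2 weeks and then passaged to form free-floating spheres. Each preparation was split into an untreated well and a well that received bacterial lipopolysaccharide (LPS, 100 µg/mL) for 48 h. Each replicate was the pooled gut of 1 litter, so untreated and LPS-stimulated gliospheres of the same number share their animals, while the labels do not tie the in vivo arrays to those litters. No group of animals or cells without the transgene was included.

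The acute phase is the early protein response to infection and injury, in which IL-6, IL-1 and related cytokines act through STAT3, NF-kB and C/EBP factors to raise the secretion of proteins that bind iron, haem, copper, lipids and microbial surfaces or that restrain proteases. The liver makes most of the circulating pool, and many of the genes are also switched on locally in epithelium, macrophages, fibroblasts and astrocytes. Lipocalin-2, the product of Lcn2, captures the siderophores with which bacteria collect iron, and in the brain Lcn2 and Serpina3n are widely used as markers of reactive astrocytes.

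Median raw signal per array was 124 to 215 and 46.6 to 50.1% of probes were detected (detection p of 0.05 or below against the negative control beads). Values below are normalized log2 signals. A level is compared only between arrays of the same probe, because probes differ in how brightly they bind. Among 6 of 9 enteric glial markers with a probe, Ngfr and Entpd2 were detected on all 9 arrays and S100b on 2 or 3 arrays of each group, whereas Gfap was detected on 3 of 3 arrays of each gliosphere group and on 0 of 3 arrays of the group sorted for the GFAP reporter. Of the neuronal markers, 5 to 8 of 9 with a probe were detected per array.

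**Figure D1:**
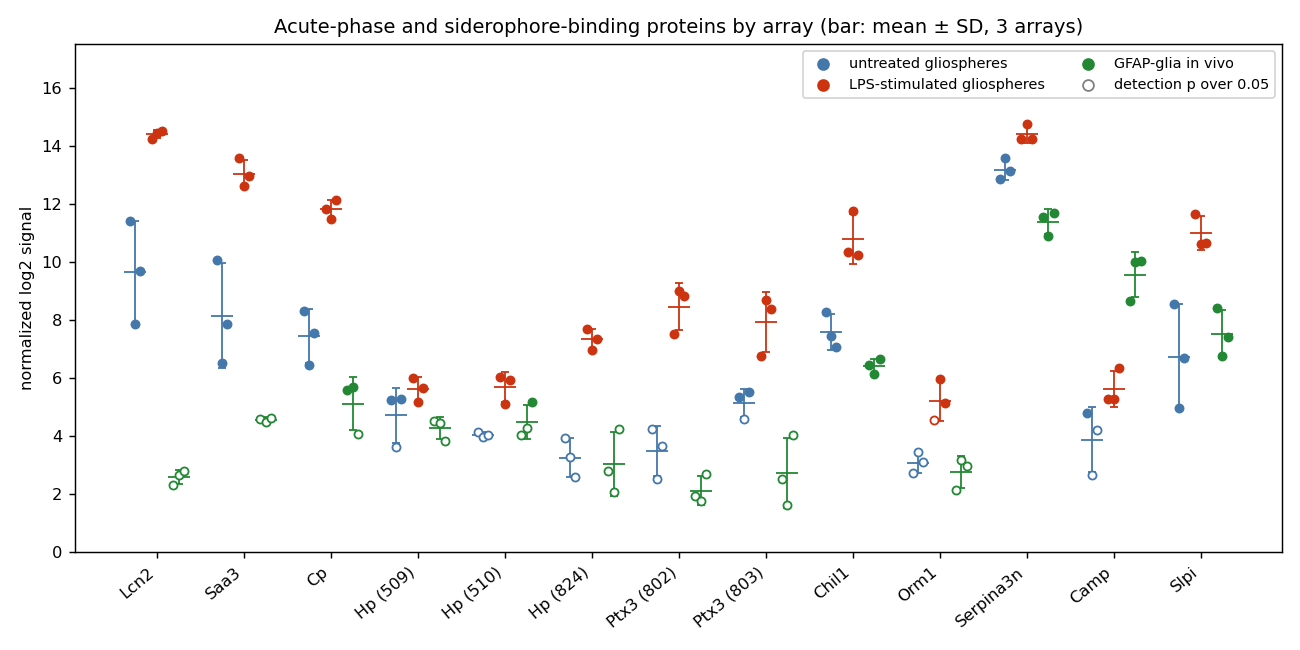
Normalized log2 signal (y axis) of the 13 probes (x axis) on each of 9 arrays, with the mean ± SD of 3 arrays per group as bars and open points where the detection p was over 0.05. Lcn2 ran from a mean of 2.59 in vivo to 14.40 under LPS, and Camp was the one probe with its highest level in vivo.

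The start regions of the genes on which the results turn are shown to make the comparison between them concrete. They hold 250 bases before and 50 after the annotated start (RefSeq, build GRCm38.p6), and 8 of the 10 members had an entry, Cp with 2 start sites. Patterns of factors linked to the acute phase were searched on both strands, with N for any base. They were TTNNGNAA for C/EBP (TTNCNNAA on the other strand), GGG and CC with any 5 bases between them for NF-kB (GG and CCC on the other strand), and TTCNNNGAA for STAT, which reads the same on both. Capitals mark the matches, and no C/EBP match overlapped an NF-kB match in the 4 regions shown, which are Lcn2 (chr2:32387690-32387989, minus strand), Saa3 (chr7:46715627-46715926, minus strand), Ptx3 (chr3:66219637-66219936, plus strand) and Camp (chr9:109849407-109849706, minus strand).
Lcn2: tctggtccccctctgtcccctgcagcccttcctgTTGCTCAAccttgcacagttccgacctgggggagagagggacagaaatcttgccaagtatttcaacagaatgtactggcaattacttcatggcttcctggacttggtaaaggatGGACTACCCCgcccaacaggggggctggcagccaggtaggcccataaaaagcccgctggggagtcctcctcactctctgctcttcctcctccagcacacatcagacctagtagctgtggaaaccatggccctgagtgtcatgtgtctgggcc
Saa3: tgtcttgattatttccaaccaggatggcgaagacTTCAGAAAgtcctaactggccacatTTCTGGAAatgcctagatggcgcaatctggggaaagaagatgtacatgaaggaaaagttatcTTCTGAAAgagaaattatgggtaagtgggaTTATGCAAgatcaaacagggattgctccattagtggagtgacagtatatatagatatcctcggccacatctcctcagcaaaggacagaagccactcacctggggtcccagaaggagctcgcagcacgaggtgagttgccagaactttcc
Ptx3: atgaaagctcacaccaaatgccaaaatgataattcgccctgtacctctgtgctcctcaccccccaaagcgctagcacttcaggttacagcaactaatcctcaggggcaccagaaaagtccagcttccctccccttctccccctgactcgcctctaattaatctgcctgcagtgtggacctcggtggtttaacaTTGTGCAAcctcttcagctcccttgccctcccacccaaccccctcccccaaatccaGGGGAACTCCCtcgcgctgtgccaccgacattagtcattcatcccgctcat
Camp: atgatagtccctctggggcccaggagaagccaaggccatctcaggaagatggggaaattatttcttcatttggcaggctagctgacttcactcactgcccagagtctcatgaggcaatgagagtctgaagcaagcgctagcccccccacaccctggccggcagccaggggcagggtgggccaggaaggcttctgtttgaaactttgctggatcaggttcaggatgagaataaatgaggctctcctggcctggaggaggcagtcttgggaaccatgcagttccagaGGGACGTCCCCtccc
Saa3 held 4 C/EBP matches, at -216, -191, -129 and -99 from the start, and Lcn2 and Ptx3 held 1 each. Lcn2 held 1 NF-kB match at -102. Of the 2 overlapping NF-kB matches of Ptx3, 1 lies across its start site (-1 to 9) and 1 begins at the start base (1 to 10). Camp had 2 overlapping NF-kB matches after its start and no C/EBP match. Over all members with an entry, 7 of 8 had a C/EBP match, 6 of 8 an NF-kB match and 0 of 8 a STAT match. Of 32851 promoters of the same length, 40.7% held the C/EBP pattern, 50.8% the NF-kB pattern and 8.3% the STAT pattern, so such matches are common and describe letters, not binding.

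LPS raised 6 of the 10 members in gliospheres and lowered none in the fit without a block. Lcn2, Saa3, Cp, Chil1 and 1 probe each of Hp and Ptx3 passed the test (limma, Benjamini-Hochberg over all 14795 probes, threshold 0.05), which is 6 of 13 probes against 0.845% of all probes called in either direction (0.683% higher, 0.162% lower). By the brightest probe of each gene alone, 4 of 10 members passed, Hp and Ptx3 not among them. With the litter as a block on the gliosphere arrays alone, 3 of 13 probes passed, those of Cp, Hp and Orm1, while Lcn2, Saa3, Ptx3 and Chil1 had adjusted p of 0.0536 to 0.0869. The shares above do not belong to the litter-blocked fit, whose count over all probes is given in the closing section on processing. Serpina3n, Slpi, Orm1 and Camp were also higher on average and did not pass without the block. The fitted difference was positive for 13 of 13 probes, with a median of 3.18 on the log2 scale against 0 over all probes. Within litters, 13 of 13 probes were higher under LPS in each of the 3 litters, as were 19.3% of all probes, and the arrays of the 2 groups did not overlap for 12 of 13 probes against 19.2% of all probes (9.92% with LPS higher).

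Lcn2 encodes lipocalin-2. Its level in untreated gliospheres was 11.40, 7.85 and 9.67 in litters 1, 2 and 3, and under LPS it was 14.24, 14.44 and 14.52. The LPS arrays lay close together (SD 0.14), while the untreated arrays spread widely with litter 2 lowest, and the groups did not overlap. In raw signal, the untreated arrays read 3952, 482 and 1401 and the LPS arrays 25216, 25149 and 22789, which was 55.8 to 65.6% of the brightest probe on the same array. The log2 fold change was 4.76 (SE, standard error, 0.71, adjusted p = 0.0177), and by litter it was 2.84, 6.58 and 4.85. With litter as a block and only the gliosphere arrays in the fit, adjusted p was 0.0869, and the call was also lost when untreated replicate 3 or any LPS replicate was left out (0.0556 to 0.0940).

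Cp encodes ceruloplasmin, a copper-carrying ferroxidase that oxidises iron for loading onto transferrin and is made by astrocytes in the brain. Untreated gliospheres gave 8.31, 6.46 and 7.56, and LPS-stimulated gliospheres 11.82, 11.46 and 12.12. Every LPS array was above every untreated array, and litter 2 was the lowest in both groups. The log2 fold change was 4.36 (SE 0.54, adjusted p = 0.00842), and the call held with litter as a block (0.0473) and with any one array left out (up to 0.0485).

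Hp encodes haptoglobin, which binds free haemoglobin. Its probes gave unequal answers. Probe ILMN_2944824 read 3.93, 3.26 and 2.58 in untreated gliospheres, where it was detected on 0 of 3 arrays, and 7.69, 6.95 and 7.34 under LPS, where it was detected on all 3. The groups were far apart, with a fitted log2 fold change of 4.07 (SE 0.55, adjusted p = 0.0120). As the untreated level has only a bound, the increase was at least 5.93-fold, computed from the mean of the LPS arrays against, per untreated array, the higher of the probe's own level and the lowest level of a detected probe. Such bounds hold for the background-corrected VSN values only, and the fitted difference of this probe was 2.49 after quantile normalization and 1.09 in the values normalized by the authors. The call held with litter as a block (0.0473) and was lost without untreated replicate 2 or 3 or LPS replicate 3 (adjusted p = 0.0590 to 0.0618). Probe ILMN_2668510 averaged 4.05 untreated and 5.68 under LPS (log2 difference 1.63, adjusted p = 0.0939) and ILMN_2668509 differed by 0.88 (adjusted p = 0.787), so neither passed. Both were dim in every group, with 6.02 as their highest value on any array.

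Saa3 encodes serum amyloid A3, the family member made mainly outside the liver in mice, which carries lipid and retinol. Its level was 10.07, 6.51 and 7.86 in untreated gliospheres and 13.56, 12.60 and 12.94 under LPS. Litter 1 was the highest and litter 2 the lowest in both groups, and the groups did not overlap. The log2 fold change was 4.89 (SE 0.73, adjusted p = 0.0177). Adjusted p was 0.0536 with litter as a block on the gliosphere arrays, and without untreated replicate 3 or any single LPS replicate adjusted p was 0.0642 to 0.0894.

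Ptx3 encodes the long pentraxin 3, a secreted pattern recognition protein that opsonises microbes. Probe ILMN_2662802 read 4.23, 2.53 and 3.67 in untreated gliospheres, none detected, and 7.52, 9.01 and 8.82 under LPS. The fitted log2 difference was 4.97 (SE 0.52, adjusted p = 0.00480), and as a bound the increase was at least 12.9-fold. The call held with any one array left out and not with litter as a block on the gliosphere arrays (0.0645). The second probe, ILMN_2662803, read 5.34, 4.6 and 5.51 against 6.76, 8.67 and 8.37 under LPS. The groups did not overlap here either, and the difference of 2.78 (SE 0.66) did not pass (adjusted p = 0.129).

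Chil1 encodes chitinase-3-like protein 1 (YKL-40 in humans), a secreted lectin-like protein without chitinase activity that astrocytes and macrophages release in inflammation. Untreated gliospheres read 8.26, 7.45 and 7.06 and LPS-stimulated gliospheres 10.33, 11.76 and 10.23. Here litter 2 was highest under LPS, and the groups did not overlap. The log2 fold change was 3.18 (SE 0.45, adjusted p = 0.0158), with 0.0769 under the litter block and 0.0835 and 0.0751 without untreated replicate 2 or 3.

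Orm1 encodes orosomucoid 1, an acidic glycoprotein of plasma that binds drugs and lipids. It read 2.73, 3.44 and 3.09 in untreated gliospheres, none detected, and 4.54, 5.96 and 5.14 under LPS, detected on 2 of 3. The groups did not overlap, and with a log2 difference of 2.13 (SE 0.41, adjusted p = 0.0593) Orm1 lay just outside the threshold. It passed with litter as a block on the gliosphere arrays (0.0473). It also passed with the replicate number as a block on all 9 (0.0248), though no label ties the in vivo arrays to the litters.

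The protease inhibitors differed in their starting level. Serpina3n, a serine protease inhibitor related to human antichymotrypsin, was already bright in untreated gliospheres at 12.85, 13.56 and 13.11, and read 14.23, 14.76 and 14.24 under LPS. All LPS arrays were above all untreated arrays and the litter differences were close to each other at 1.38, 1.2 and 1.13, yet the fit over all 9 arrays did not call the difference of 1.24 (SE 0.31, adjusted p = 0.155), nor did the fit with litter as a block (0.0586). Its raw LPS signals were 48.6 to 82.2% of the brightest probe on their array. Slpi, the secretory leukocyte protease inhibitor of mucosal surfaces, read 8.55, 4.95 and 6.70 untreated and 11.65, 10.62 and 10.66 under LPS. The groups did not overlap, and the difference of 4.25 (SE 0.81) was of the size of those of Lcn2 and Cp and missed the threshold (adjusted p = 0.0557). Slpi passed in 8 of 11 other fits and in 1 of 9 with an array left out. Among the former was that of all 9 arrays blocked by replicate number (0.0236), which is no litter block for the in vivo arrays. With litter as a block on the gliosphere arrays alone, Slpi failed (0.0627).

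Camp encodes the precursor of the antimicrobial peptide cathelicidin (CRAMP in mice). It was close to background in culture, at 4.78, 2.64 and 4.21 untreated and 5.28, 5.26 and 6.35 under LPS. The groups did not overlap although litter 1 moved by only 0.50, and the difference of 1.75 (SE 0.60) did not pass (adjusted p = 0.417, and 0.188 with litter as a block).

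**Figure D2:**
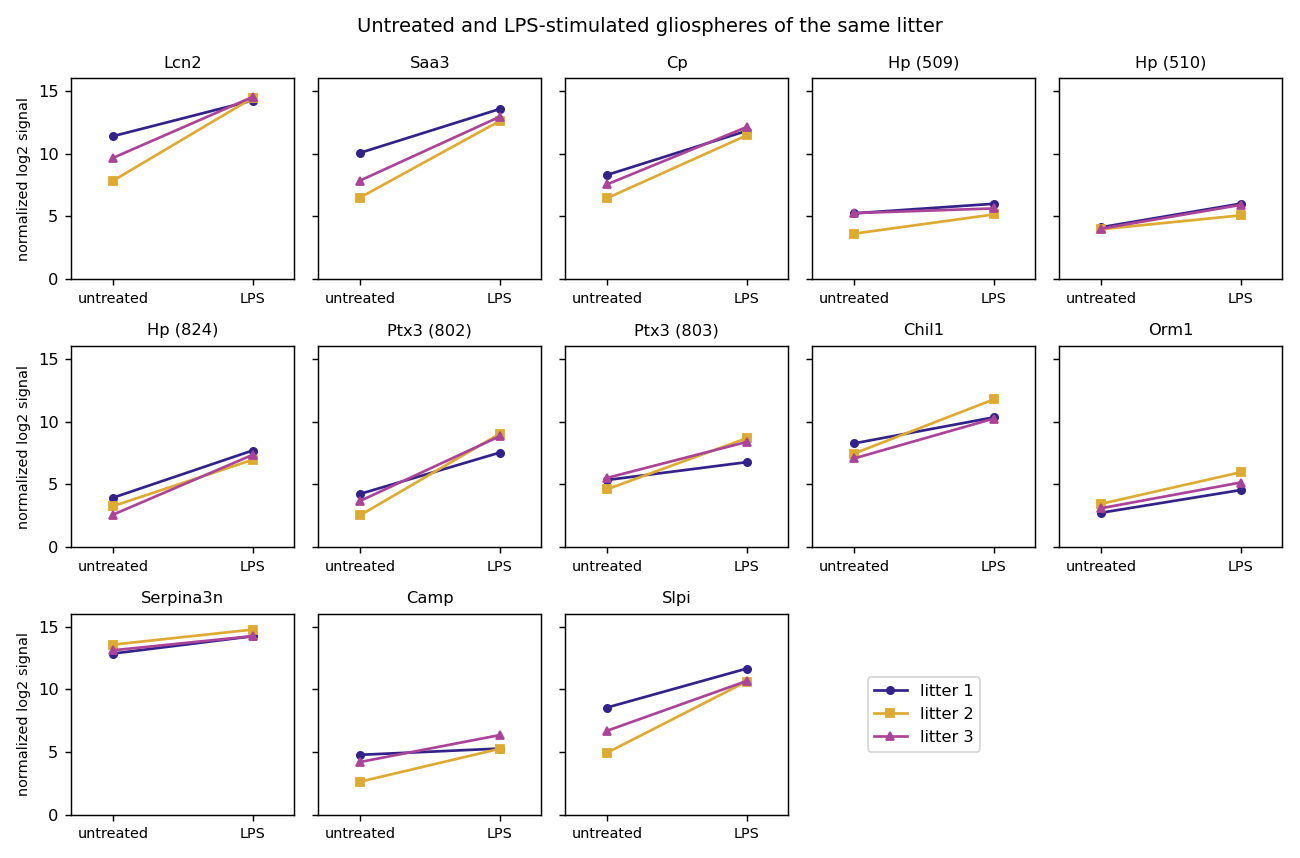
Normalized log2 signal (y axis) of each probe in untreated and LPS-stimulated gliospheres (x axis), with a line joining the wells of 1 litter. All lines rise, and for Lcn2, Saa3, Cp and Slpi the litters are spread before LPS and closer after it.

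The replicates of each group did not take their places evenly across the member probes. Untreated replicate 1 was the highest untreated array for 9 of 13 probes, against 38.6% of all probes, and untreated replicate 2 was the lowest for 9 of 13, against 40.0%. The LPS-minus-untreated difference was largest in litter 2 for 10 of 13 probes (43.3% of all probes). Under LPS, the highest array was replicate 1, 2 or 3 for 5, 5 and 3 probes, near the shares of all probes (33.3, 36.5 and 30.2%). The lowest LPS array was replicate 1, 2 or 3 for 5, 7 and 1 (34.1, 32.8 and 33.1% of all probes). In vivo, replicate 3 was highest for 9 of 13 probes (23.1% of all probes) and replicate 2 lowest for 7 of 13 (23.2%), although no label ties those arrays to the litters. No test was made of these counts, the probes were measured on the same arrays and several sit near background, so the counts are not independent of one another. The median SD of the untreated arrays was 0.87 for the member probes and 0.26 for all probes, and for the LPS arrays it was 0.51 and 0.23.

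Untreated gliospheres differed from GFAP-glia in vivo in both directions. Lcn2, Saa3, Cp, Serpina3n and 1 Ptx3 probe were higher in culture and Camp was lower, which makes 6 of 13 probes called against 24.9% of all probes (13.1% higher, 11.8% lower). The arrays of the groups did not overlap for 7 of 13 probes, against 41% of all probes (22.9% with the gliospheres higher). The median difference over the members was 1.18 on the log2 scale, against 0.09 for all probes. Culture, growth factors, low oxygen and age of the cells all changed together between these groups and cannot be told apart. In bulk RNA, more cells of a type and more RNA per cell cannot be told apart either.

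Lcn2 was not detected on any of the 3 in vivo arrays, where it read 2.31, 2.65 and 2.81. The untreated gliospheres were thus at least 27.9-fold higher (fitted log2 difference 7.05, SE 0.71, adjusted p = 1.69e-04), without any LPS. In the values normalized by the authors the difference was 2.91 (adjusted p = 0.00426), so the call held and the size did not. Saa3 read 4.6, 4.47 and 4.63 in vivo, also undetected on all 3, and was at least 9.90-fold higher in untreated gliospheres (fitted 3.58, adjusted p = 0.00742). In the values normalized by the authors its difference was 1.5 and did not pass (adjusted p = 0.0527). For Cp, the in vivo arrays read 5.60, 5.67 and 4.08 with 2 of 3 detected, and the difference of 2.33 (SE 0.54) passed at an adjusted p of 0.0135, was lost without untreated replicate 1 (0.0508) and was 0.87 (0.0340) in the values normalized by the authors.

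Serpina3n was well above background in vivo at 11.54, 10.88 and 11.69, and 1.81 higher in untreated gliospheres (SE 0.31, adjusted p = 0.00295). Of the dim members, Ptx3 by ILMN_2662803 passed (2.42, adjusted p = 0.0257, at least 1.24-fold) and did not pass without untreated replicate 1 or 3 or in vivo replicate 1 or 2 (0.0591 to 0.0833), nor in the values normalized by the authors (0.46, adjusted p = 0.208). Chil1 read 6.43, 6.14 and 6.65 in vivo, and its difference of 1.18 did not pass (adjusted p = 0.0874) although the groups did not overlap. Slpi overlapped between the groups, with 8.40, 6.77 and 7.40 in vivo (difference -0.79, 95% interval -2.62 to 1.04, adjusted p = 0.510). Hp and Orm1 were near or below the detection limit in both groups.

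Camp ran the other way. It read 8.66, 10 and 10.02 in GFAP-glia in vivo, against 4.78, 2.64 and 4.21 in untreated gliospheres, where 1 of 3 arrays detected it. Raw signals were 485, 799 and 564 in vivo and 203, 144 and 204 in culture. The difference was -5.68 (SE 0.60, adjusted p = 2.22e-04), and the call held in 9 of 9 fits with an array left out and in 9 of 9 other fits, with a size that came down to -2.56 in the values normalized by the authors. Cathelicidin is known from neutrophils, so neutrophil markers are given beside it. All 12 listed had a probe and 4 were detected on any array. S100a9, Mpo, Ltf, Ngp, Cxcr2 and Retnlg were detected on none of the 9 arrays. Prtn3, which encodes neutrophil proteinase 3, was the single one higher in vivo than in untreated gliospheres (6.42 against 4.58, adjusted p = 0.0241). The summed intensity of the list, in the values normalized by the authors because raw brightness differed between arrays, was 1726 to 1769 in vivo, 1673 to 1725 in untreated and 1673 to 1732 in LPS-stimulated gliospheres. As most of these markers were detected on no array, the sums are mostly background and cannot tell whether neutrophil RNA differed. Markers of other lists were also higher in vivo, with 3 of 8 tested of the leukocyte list (Adgre1, Laptm5 and Cd3e), 3 of 5 of the smooth muscle list (Actg2, Myh11 and Des) and 4 of 8 of the neuronal list (Chat, Nos1, Uchl1 and Stmn2). Over all probes, 11.8% were called higher in vivo than in untreated gliospheres. Single markers of the endothelial (Vwf), epithelial (Lgr5, detected on 1 of 3 in vivo arrays), fibroblast (Dcn) and glial (Fabp7) lists were higher in vivo as well. The epithelial, fibroblast and glial lists each also held 1 marker that was higher in untreated gliospheres. Among these were Lyz1 (8.11 against 5.82 in vivo) and Gfap (8.14 against 3.77). Actg2 stood at 12.09 against 5.40 and Chat at 10.81 against 4.80. The part of these cells in the Camp difference was not tested.

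LPS-stimulated gliospheres were set against the same in vivo arrays, so the 2 comparisons with GFAP-glia in vivo share their control. Of the 13 probes, 11 were higher and 1 was lower, against 28.3% of all probes called (14.9% higher, 13.4% lower), and 9 of 10 members were higher by at least 1 probe. The arrays did not overlap for 12 of 13 probes, against 43.6% of all probes (24.5% with LPS higher). The median difference was 4.30, against 0.10 over all probes. Lcn2, which no in vivo array detected, was at least 753-fold higher (fitted log2 difference 11.80, SE 0.71, adjusted p = 7.60e-06), and differed by 7.38 in the values normalized by the authors. Saa3, also undetected in vivo, was at least 293-fold higher (fitted 8.47, adjusted p = 5.60e-05) and differed by 5.67 in those values. Cp was 6.68 higher (adjusted p = 3.92e-05) and 4.32 in those values. Ptx3 by ILMN_2662802 was undetected in vivo and at least 12.2-fold higher (fitted 6.33, adjusted p = 4.33e-05), and differed by only 2 on the log2 scale in those values. All 4 passed in both sets of values.

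Slpi, Serpina3n, Orm1 and Camp, which had not passed between LPS-stimulated and untreated gliospheres, passed here. Slpi was 3.46 higher than in vivo (adjusted p = 0.0121), Serpina3n 3.04 higher (1.24e-04) and Orm1 2.45 higher (0.00237, at least 1.3-fold). Chil1, called in both comparisons, was 4.36 higher (1.48e-04). For Hp, ILMN_2944824 was at least 5.62-fold higher (fitted 4.30, 4.78e-04) and differed by only 1.16 on the log2 scale in the values normalized by the authors. Probe ILMN_2668510 passed with a difference of 1.19 (0.0335) that was kept in 2 of 9 fits with an array left out and 4 of 9 others, and ILMN_2668509 did not pass (1.33, 0.0569). Camp was lower under LPS than in vivo, with a mean level of 5.63 against 9.56 (difference -3.93, SE 0.60, adjusted p = 0.00135).

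**Figure D3:**
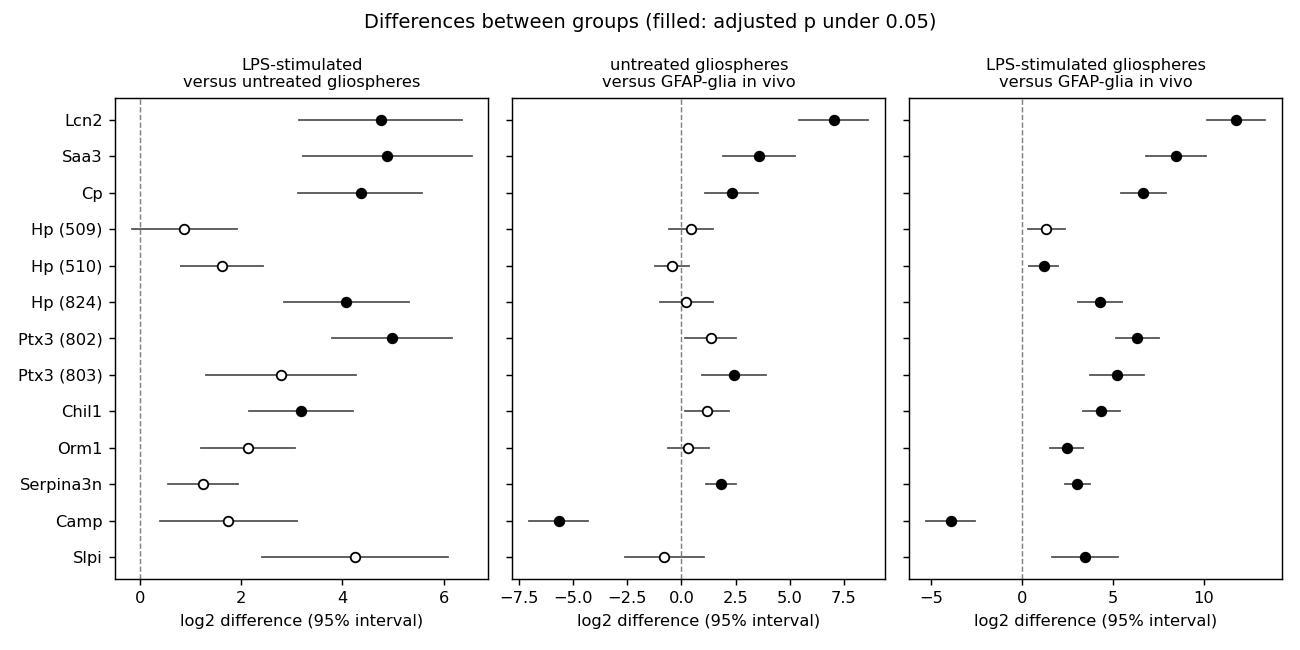
Log2 difference between groups (x axis, point with its 95% interval) for each of the 13 probes (y axis) in the 3 comparisons, with filled points where the adjusted p was under 0.05. LPS raised Lcn2 by 4.76, Saa3 by 4.89 and Cp by 4.36, while Camp lay at -5.68 and -3.93 in the 2 comparisons with GFAP-glia in vivo.

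Genes that induce the acute phase were read beside the members. Of 26 tested genes of IL-6, IL-1 and C/EBP signalling, 6 rose under LPS and none fell (0.845% of all probes called), with a median of 0.68. Il6, which encodes 1 of the acute-phase cytokines named above, went from undetected in untreated gliospheres to 6.76 under LPS (at least 3.98-fold, adjusted p = 0.0159). Cebpb, which encodes the C/EBP-beta transcription factor, rose from 9.68 to 12.47 (log2 fold change 2.79, adjusted p = 0.00195). Nfkbia, the inhibitor that NF-kB itself induces, rose by 2.63 (adjusted p = 0.00830) and Nfkbiz, an NF-kB cofactor needed for Lcn2 induction in macrophages, by 2.41 (adjusted p = 0.0197). Against GFAP-glia in vivo, 8 of the 26 were higher and 2 were lower in untreated gliospheres, where 13.1% of all probes were higher and 11.8% lower. Osmr, the oncostatin M receptor chain, was among those higher (6.77 against 3.75, undetected in vivo, at least 3.81-fold, adjusted p = 8.49e-04), as was Nfkb2, a subunit of NF-kB (6.20 against 3.99, adjusted p = 0.00133). Socs3, the feedback inhibitor of STAT3 signalling, was lower in untreated gliospheres at 8.83 against 12.74 in vivo (adjusted p = 8.27e-04), as was Fos at 12.05 against 14.37 (adjusted p = 0.00868).

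Of 18 other acute-phase and antimicrobial genes tested, 3 rose under LPS and none fell (0.683% of all probes higher, 0.162% lower), with a median of 1.18. These were Crispld2, an LPS-binding secreted protein (at least 5.08-fold, adjusted p = 0.00950), S100a8, a metal-binding calgranulin subunit (at least 1.61-fold, adjusted p = 0.0325), and Lbp, the plasma carrier of LPS (at least 1.21-fold, adjusted p = 0.0291). All 3 were undetected in untreated gliospheres. S100a9, which encodes the partner subunit of S100a8, was detected on no array. In untreated gliospheres against GFAP-glia in vivo 5 of 18 were higher and 1 was lower, not far from the 24.9% of all probes called, and Trf, the iron carrier transferrin, had the largest difference among the former (12.24 against 8.60, adjusted p = 1.80e-05). Nptx2, a neuronal pentraxin, was the lower one (undetected against 9.26 in vivo, at least 22.6-fold, adjusted p = 3.48e-04).

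Of 13 tested receptors and binding partners of the members, 3 rose under LPS and none fell (0.683% of all probes higher, 0.162% lower), with a median of 0.05. Mmp9, the gelatinase that human lipocalin-2 binds, rose from 8.09 to 11.17 (log2 fold change 3.08, adjusted p = 0.00267). Fcgr2b, an inhibitory Fc receptor, rose by 2.84 (adjusted p = 0.0329) and Tlr2, a receptor reported to sense serum amyloid A, by 2.48 (adjusted p = 0.00694). The lipocalin-2 receptor candidate Slc22a17 read 9.71 under LPS, 9.88 untreated and 11.43 in vivo, and was lower in untreated gliospheres than in vivo (adjusted p = 0.00728). It is named here after its values were seen. Of 20 tested genes of iron and copper handling, 1 rose under LPS, the iron importer Slc11a2 (8.20 to 9.34, adjusted p = 0.0459), and none fell, beside the same shares of all probes.

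The 5 probes whose levels over the 9 arrays were most like the Lcn2 probe belonged to Mmp10, a stromelysin (r = 0.994), Ccl2, a monocyte attractant (0.993), Mmp9 (0.991), Casp4, an LPS-sensing caspase (0.988), and Slc11a2 (0.988). Of the members, Saa3 had the highest value (0.97) and Cp followed (0.95), while Camp ran opposite (-0.67). These are Pearson correlations over 9 arrays that fall in 3 groups, of which gliosphere wells share litters, and describe a pattern only.

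Markers of other cell types under LPS are given for the same arrays. Of 7 fibroblast and mesenchymal markers, Dcn (10.39 to 13.19, adjusted p = 0.0313) and Lum (7.24 to 9.31, adjusted p = 0.0177) rose and 5 did not pass, where 0.683% of all probes were called higher. The summed intensity of the list, as normalized by the authors, was 14973 to 19599 under LPS, 9316 to 10181 untreated and 11970 to 27986 in vivo. Of the macrophage and leukocyte list, 12 of 15 had a probe, 8 were tested and none passed under LPS (limma, adjusted p over 0.05). Its summed intensity on the same scale was 1932 to 2298 under LPS, 1862 to 2222 untreated and 2994 to 3473 in vivo. Ptprc, Itgam, Tyrobp and Fcgr1 were detected on no array, whereas Adgre1 and Aif1 were detected on all 9 arrays by at least 1 probe. Lyz2 read 7.73 under LPS against 5.51 untreated (adjusted p = 0.498), and Adgre1 read 6.14 against 7.12 (adjusted p = 0.928). Of the smooth muscle list, 5 markers were tested and none passed under LPS. Acta2 read 11.31 under LPS against 12.38 untreated (limma, adjusted p = 0.392), and Actg2 7.18 against 5.40. As normalized by the authors, the list summed to 2989 to 4000 under LPS, 4333 to 7966 untreated and 9872 to 34714 in vivo. The part of these cells in the member levels was not tested.

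How large the response appeared depended on the treatment of dim signal. In the values normalized by the authors, where the lowest member value on any array was 6.85 on the log2 scale, the LPS differences of all 13 probes were smaller. Of the probes detected on all gliosphere arrays, Serpina3n came to 1.19, Lcn2 to 4.47, Saa3 to 4.17, Cp to 3.46, Chil1 to 2.45 and Slpi to 2.91. The dim probes moved further, to 1.09 for Hp (ILMN_2944824), 1.75 for Ptx3 (ILMN_2662802) and 0.39 for Orm1. Of the 13 probes, the 6 called ones passed in those values as well, and Slpi passed in addition (2.91, adjusted p = 0.0107). The share of all probes called in that fit is not given here, so these calls stand without a baseline.

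**Figure D4:**
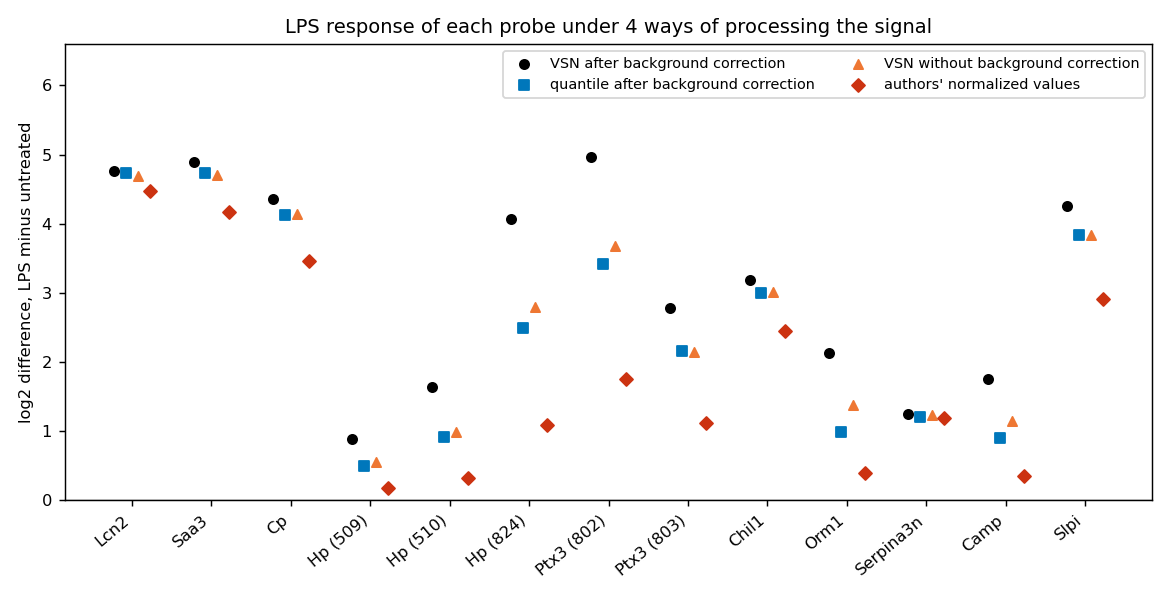
LPS-minus-untreated log2 difference (y axis) of the 13 probes (x axis) under 4 ways of processing the same signals, with probes of Hp and Ptx3 labelled by the last digits of their ID. Serpina3n went from 1.24 to 1.19 and Lcn2 from 4.76 to 4.47, while Hp (ILMN_2944824) went from 4.07 to 1.09 and Ptx3 (ILMN_2662802) from 4.97 to 1.75 between background-corrected VSN and the values normalized by the authors.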

How the data were processed

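Signal intensity per probe and array was deposited by the authors as GenomeStudio wrote it (version not given in the sources used here), without background correction or normalization, with a detection p-value for each signal from the deposited table. A second table deposited by the authors held normalized intensity on a linear scale. All its columns held nearly the same set of values (medians 164.2 to 164.4), whereas the study's methods name VSN, and it served as an alternative.

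In both tables, values with 3 or more decimals had lost their decimal point (95.8 to 98.2% of signal cells per array). It was put back from the monotone relation of the 2 tables within each array. Of 462546 cells, 324 had a second near reading, none in a member probe. The restoration and the fit were tested on simulated data.

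Background was corrected by normexp from the detection p-values (limma 3.58.1, R 4.3.3). Because no VSN package was installed, its model was fitted with purpose-written code. A first form of its parameters depended on the starting values and was replaced, after its calls had been seen, by one that gave the same fit from every start tried (0 of 231273 values moved by over 0.1 from a second start). Probes were kept if they had a gene symbol and a detection p of 0.05 or below on some array. A list of poorly performing probes that the methods mention was not used here.

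limma fitted the 3 group means on 14795 probes (6 residual degrees of freedom, prior 3.15), as the methods' moderated test, with Benjamini-Hochberg adjustment across the probes kept and 0.05 as the threshold. A gene in a list counts by its brightest probe. Bead chip positions were not given in the sources used here. The members and gene lists were chosen with earlier results of these data known. Named were the 10 members, of each list up to 4 genes with the largest change among those past the test, list markers not detected, and the 5 probes most like Lcn2.

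The series text ties wells of the same number to 1 litter. Deviations from the group means of same-numbered untreated and LPS arrays correlated at 0.16, 0.09 and 0.17 over probes, and those of other numbers at -0.14 to -0.02. The fit reported has no block, since the methods name none, and the litter-blocked value stands beside a result where it changes the call. A block by replicate number on all 9 arrays is no litter block for the in vivo arrays, whose same-numbered correlations with untreated arrays were -0.18, -0.16 and 0.01. Other alternatives were quantile normalization, no background correction, the authors' values, other detection filters, array weights, a trended and robust fit, fitting only the groups compared, and leaving out each array. The number of arrays limits the precision. Figures were drawn with matplotlib 3.10.9.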

Additional observations from a re-analysis of the deposited data

How the results depend on the processing

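For LPS-stimulated against untreated gliospheres, 125 probes passed. The count was 424 with array weights, 211 with only the 2 groups in the fit, and 1220 in the values normalized by the authors with the litter as a block and only gliosphere arrays, an alternative added after the data were seen. With a single array left out it ranged from 42 (without untreated replicate 3) to 218 (without in vivo replicate 1), with 68 and 50 without untreated replicates 1 and 2 and 46 and 44 without LPS replicates 2 and 3. Of the 14795 probes, 109 passed with the litter as a block on the gliosphere arrays, and 90 with the replicate number as a block over all 9 arrays. The cause was not tested. For untreated gliospheres against GFAP-glia in vivo 3684 passed, 2358 to 4669 with 1 array left out, of which the fit without untreated replicate 2 gave the lowest count. For LPS-stimulated gliospheres against GFAP-glia in vivo 4186 passed, and no alternative moved this by over 1.5 times.

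Over the 13 member probes and 3 comparisons, 653 alternative values kept direction and side of the threshold, 39 lost the call, 30 gained it and 3 changed sign. The last were uncalled differences between untreated gliospheres and GFAP-glia in vivo: Hp by ILMN_2944824 (0.23, and -0.11 without untreated replicate 1, -0.26 without in vivo replicate 2, range -0.26 to 0.83 with 1 array left out) and Slpi (-0.79, and 0.10 without untreated replicate 2, range -1.7 to 0.10). Saa3 lost that comparison in the values normalized by the authors (1.5, adjusted p = 0.0527). Cp passed for LPS in 9 of 9 fits with an array left out and 11 of 11 others. With a stricter detection filter Orm1 was not in the fit, so it has no value there. With only the 2 gliosphere groups in the fit, Lcn2 and Saa3 missed the threshold for LPS (0.0552 and 0.0578).

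Signals near background limit Hp, Ptx3, Orm1 and Camp in culture. With 3 litters per group, a p above the threshold does not show that levels were alike.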
